A study of Mus musculus with 8 samples.

Results

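The Fc receptor genes of tumor-associated macrophages (TAMs) are described here as 6 genes, chosen by symbol in the deposited table: the activating IgG receptors Fcgr1, Fcgr3 and Fcgr4, the adaptor Fcer1g, the inhibitory receptor Fcgr2b and the neonatal Fc receptor Fcgrt. They are 6 of the 53247 genes listed. RNA-Seq compared 4 WT with 4 miR-21-/- (miR-21 null) samples of TAMs, taken from s.c. implanted Lewis lung carcinoma (LLC) cells, a mouse tumor line. The C57/BL6 mice were given tumor cells at 8 weeks and were 10 weeks old at collection, 14 days later, and the cells were sorted by FACS as CD45+ CD11b+ MHCII+ F4/80+. The deletion (allele Mir21atm1Yoli, bred onto C57BL/6) was present in all cells of the miR-21-/- hosts, whereas the implanted LLC cells kept the gene in both groups, and no treatment is named in the labels. The labels call the samples biological replicates. The title of miR-21-/- sample 1 joins 2 numbers without saying whether mice were pooled, and it was counted as 1 sample.

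Fc receptors bind the constant part of antibodies and tie antibody recognition to macrophage functions such as phagocytosis. The activating receptors encoded by Fcgr1, Fcgr3 and Fcgr4 carry no signalling motif of their own in the mouse and signal through the common γ chain encoded by Fcer1g, which recruits the kinase Syk. The receptor encoded by Fcgr2b carries an inhibitory motif, recruits the phosphatase SHIP1 (Inpp5d) and raises the threshold for activation. The product of Fcgrt, known as FcRn, pairs with β2-microglobulin (B2m), works inside endosomes and protects IgG and albumin from degradation. Macrophages are one of the cell types in which the activating and inhibitory receptors are found together.

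Fcgr1 and Fcgr4 rose in miR-21-/- TAMs by 1.68-fold and 1.78-fold in CPM (counts per 1e+06 reads, n = 4 each), Fcgrt fell 3.10-fold, and Fcgr3, Fcer1g and Fcgr2b did not pass the test. A gene passed the threshold when limma gave an adjusted p (Benjamini-Hochberg, over 13850 tested genes) of 0.005 or less and the fold change exceeded 1.5. Thus 2 of the 6 genes were higher, where 2.89% of all tested genes were, and 1 was lower, where 4.23% were; in either direction it was 3 of 6, beside 7.12% of tested genes. Directions are relative to the authors' scaling: rescaling by the median of ratios, which moved the median of all genes by 0.10, raised the share of higher genes among those past the threshold from 40.6% to 59.8% and kept the direction of all 6 genes. The genotypes did not overlap in 3 of the 6 genes, Fcgr1, Fcgr4 and Fcgrt, as was the case for 35.1% of all tested genes. The ratio of each activating receptor to Fcgr2b was higher on average in miR-21-/- TAMs.

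miR-21 was the molecule deleted, and its mature 5p strand (chr11:86584120-86584141 of GRCm38.p6, minus strand, from RefSeq) is shown with the seed, bases 2 to 8, in capitals.
mmu-miR-21a-5p: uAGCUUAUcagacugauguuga

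None of the 6 genes held a site that pairs with this seed over 7 or 8 bases in its longest annotated 3′ UTR. The 8-base site, ATAAGCTA, was found in 2.24% of 11431 genes that were tested and have an annotated 3′ UTR, and a site of 7 or 8 bases in 12.4%. A site of 6 bases, TAAGCT, was present once in Fcgr1 and at 2 places in Fcgr2b, and sites of 6 or more bases were present in 26.5% of those genes. The 3′ UTRs of Fcgr3, Fcgr4, Fcer1g and Fcgrt held no site. These 3 short sites are shown because they were the only matches among the 6 genes, with the site in capitals. They lie on the minus strand at chr3:96283477-96283502 for Fcgr1 and at chr1:170959809-170959834 and chr1:170958710-170958735 for Fcgr2b (GRCm38). A match in letters does not show that miR-21 binds there.
Fcgr1 site: ctgtaccacctgTAAGCTggagtgtg
Fcgr2b first site: caggcagctattTAAGCTtgctgtaa
Fcgr2b second site: tatactaaaatgTAAGCTcacaacag

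The promoters of the 2 genes that rose, as the 300 bases that span the start given by RefSeq for GRCm38.p6, are printed with motif matches in capitals. The Fcgr1 window is chr3:96293920-96294219 on the minus strand and the Fcgr4 window chr1:171018676-171018975 on the plus strand. The motifs, searched on both strands, were TTCNNNGAA (GAS, bound by STAT factors), the ISRE (GAAA, any 2 bases, then GAAA again, bound by interferon regulatory factors) and GAGGAA (the core bound by PU.1-like ETS factors).
Fcgr1 promoter: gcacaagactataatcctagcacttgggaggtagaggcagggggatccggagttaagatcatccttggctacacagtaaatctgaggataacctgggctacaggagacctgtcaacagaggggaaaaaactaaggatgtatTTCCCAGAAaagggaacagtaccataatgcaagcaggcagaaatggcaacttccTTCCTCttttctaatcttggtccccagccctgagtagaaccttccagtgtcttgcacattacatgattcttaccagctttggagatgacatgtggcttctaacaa
Fcgr4 promoter: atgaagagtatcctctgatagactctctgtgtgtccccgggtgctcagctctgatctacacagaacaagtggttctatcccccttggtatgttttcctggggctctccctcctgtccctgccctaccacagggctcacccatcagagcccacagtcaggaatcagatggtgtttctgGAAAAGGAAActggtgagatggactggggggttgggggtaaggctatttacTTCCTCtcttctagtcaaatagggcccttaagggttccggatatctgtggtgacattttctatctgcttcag

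In the Fcgr1 window the capitals mark 1 GAS match, TTCCCAGAA, and 1 ETS match read on the other strand, TTCCTC. The Fcgr4 window held 1 ISRE match, GAAAAGGAAA, and 1 ETS match. Among 32851 promoters of the same length, 8.30% held the GAS motif, 3.44% the ISRE motif and 28.3% the ETS core. Fcgr3 held 1 ETS match in each of its windows and neither of the other motifs, and the windows of Fcer1g, Fcgr2b and Fcgrt held none of the 3 motifs. The RefSeq windows of Fcgr3 and Fcgr2b lie inside the spans that the deposited table gives for these genes, so their counts do not describe the start of those spans. A match is a description of the letters, and binding was not measured.

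Fcgr1 encodes the high-affinity IgG receptor FcγRI and lies at chr3:96282909-96293969 on the minus strand. Its values were 305, 229.6, 259 and 299 CPM in WT samples 1 to 4 and 518, 466, 439 and 411 CPM in miR-21-/- samples 1 to 4. Each miR-21-/- sample was above the highest WT sample. Fcgr1 rose from 273 ± 35.4 CPM in WT to 458 ± 45.8 CPM without miR-21 (SD, n = 4 each). Its log2 fold change (log2FC, on the log2(CPM + 1) scale) was 0.75 (standard error, SE, 0.10, 95% confidence interval, CI, 0.52 to 0.98, limma adjusted p = 0.000561).

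Fcgr4 encodes the mouse receptor FcγRIV, which binds IgG2a and IgG2b with intermediate affinity, and lies at chr1:171018920-171029761 on the plus strand. It was at 263, 329, 343 and 539.8 CPM in WT samples 1 to 4. In miR-21-/- samples 1 to 4 it was at 644, 603, 638 and 740.4 CPM. WT sample 4 stood above the other WT samples, but still below all miR-21-/- samples. Fcgr4 rose from 369 ± 119 to 657 ± 58.7 CPM (SD, n = 4 each), with log2FC 0.88 (SE 0.18, 95% CI 0.48 to 1.28, limma adjusted p = 0.00452). This call was close to the limit. When samples were dropped 1 at a time in 8 fits, only the fit without WT sample 4 kept it (log2FC 1.08, limma adjusted p = 0.000113), and in the others the adjusted p was 0.00878 to 0.0156.

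Fcgr3 encodes the low-affinity activating receptor FcγRIII and lies at chr1:171051174-171064935 on the minus strand. Its values were 575, 627, 633 and 539 CPM in the WT samples and 685, 696, 679 and 630.0 CPM in the miR-21-/- samples. The groups overlapped, since miR-21-/- sample 4 lay just under WT sample 3. The means were 593 ± 44.5 and 673 ± 29.3 CPM (SD, n = 4 each). The log2 fold change of 0.18 (SE 0.070, 95% CI 0.027 to 0.34) did not pass the threshold (limma adjusted p = 0.0650).

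Fcer1g, the γ chain through which the activating receptors signal, lies at chr1:171229572-171234365 on the minus strand. It was at 589, 580.0, 613 and 659.9 CPM in WT samples 1 to 4 and at 695, 653, 739 and 707 CPM in miR-21-/- samples 1 to 4. The highest WT sample, again sample 4, exceeded the lowest miR-21-/- sample. The means were 610.5 ± 35.8 and 698 ± 35.2 CPM (SD, n = 4 each). The log2 fold change of 0.19 (SE 0.066, 95% CI 0.047 to 0.34, limma adjusted p = 0.0429) met neither the limit for the adjusted p nor that for the fold change. The difference of the adaptor was thus smaller than those of Fcgr1 and Fcgr4, although the difference between these genes was not tested.

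Fcgr2b, the inhibitory receptor, lies at chr1:170958617-170976547 on the minus strand. In WT samples 1 to 4 it was at 1019.76, 1182, 1234.3 and 834 CPM. In the miR-21-/- samples it was at 1019.75, 973, 909 and 764 CPM. The groups overlapped widely, with WT sample 4 below 3 of the 4 miR-21-/- samples. The means were 1067 ± 180.5 CPM for WT and 917 ± 111 CPM for miR-21-/- samples (SD, n = 4 each), with log2FC -0.21 (SE 0.13, 95% CI -0.51 to 0.084) that did not pass the threshold (limma adjusted p = 0.239). Without WT sample 4 it was -0.32 (limma adjusted p = 0.0465), without WT sample 3 -0.14 (limma adjusted p = 0.485) and without miR-21-/- sample 4 -0.13 (limma adjusted p = 0.498). It did not pass in any of the 8 fits that dropped 1 sample.

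**Figure D1:**
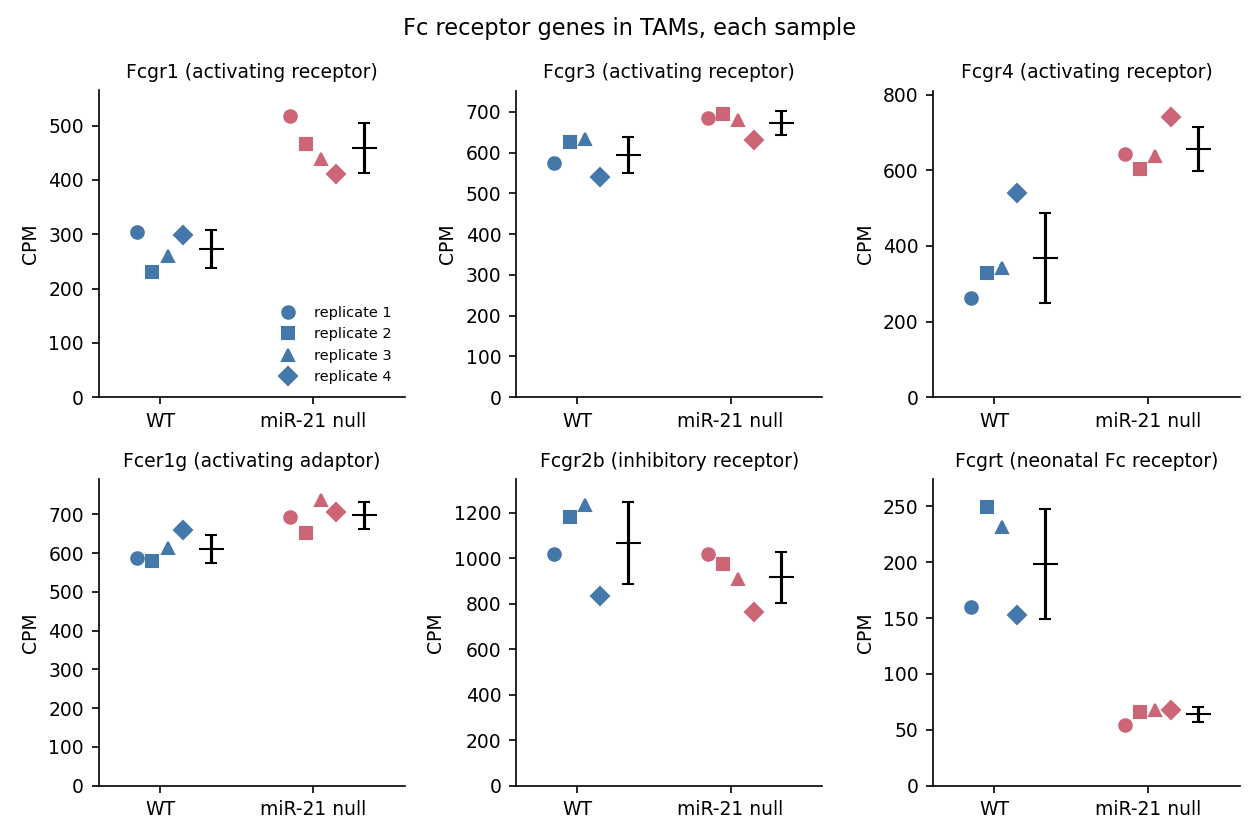
CPM of each Fc receptor gene in each sample (vertical axes in CPM, starting at 0), with WT in blue and miR-21-/- in red, and the mean and SD of 4 samples in black. Fcgr1, Fcgr4 and Fcgrt show no overlap between genotypes, and WT sample 4 (diamond) is the highest WT sample for Fcgr4 and Fcer1g and the lowest for Fcgr2b, Fcgr3 and Fcgrt.

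Fcgr2b and Fcgr3 are close paralogs on chromosome 1, and their coding sequences were identical at 83.9% of 784 aligned bases, whereas the other pairs of IgG receptors were identical at 58.6% to 63.5%. The longest run shared by transcripts of both genes was 129 bases of coding sequence that crosses an exon junction. It lies within chr1:170966674-170968081 in Fcgr2b and chr1:171054167-171057792 in Fcgr3, both on the minus strand (GRCm38), and is printed without capitals because all of it is identical.
Fcgr2b and Fcgr3 shared run: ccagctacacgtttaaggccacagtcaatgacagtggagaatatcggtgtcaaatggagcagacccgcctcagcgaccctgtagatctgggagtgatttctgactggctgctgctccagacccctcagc

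Of the 50-base words of Fcgr3 transcripts, 9.58% also occur in Fcgr2b, which is 2.92% of the words of Fcgr2b. No other pair of the 6 genes shared a 50-base word. How reads that fit both genes were assigned is not given in the sources used here, so the split of reads between Fcgr2b and Fcgr3 is uncertain to that extent. Genes that overlap the spans of Fcgr3, Fcgr4, Fcgr2b and Fcgrt were at most at 0.965 CPM.

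To compare activating with inhibitory receptors within each sample, the CPM value of each activating receptor was divided by that of Fcgr2b. A scaling of the whole sample drops out of this ratio. The Fcgr1 to Fcgr2b ratio was 0.299, 0.194, 0.210 and 0.359 across WT samples 1 to 4. Across miR-21-/- samples 1 to 4 it was 0.508, 0.479, 0.482 and 0.538. The groups did not overlap, and the miR-21-/- samples lay closer to each other than the WT samples. The ratio was 1.95-fold higher in miR-21-/- TAMs, a log2 difference of 0.96 (SE 0.21; two-sided exact permutation p = 0.0286, which 4 samples against 4 cannot go below; adjusted over the 3 receptor pairs, 0.0429). Leaving out any 1 of the miR-21-/- samples raised the unadjusted p of the exact permutation test to 0.0571. The groups still did not overlap in any of these cases, with log2 differences of 0.93 to 0.98. With fewer arrangements of samples p moves in coarser steps, so this rise does not measure how much the result depends on 1 sample.

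The Fcgr3 to Fcgr2b ratio was 0.564, 0.530, 0.513 and 0.647 in the WT samples. It was 0.672, 0.715, 0.747 and 0.824 in the miR-21-/- samples, all above the WT samples. The log2 difference was 0.39 (SE 0.096), or 1.31-fold (exact permutation test, two-sided, p = 0.0286, adjusted 0.0429). Here too the exact permutation p was 0.0571 without any 1 of the miR-21-/- samples. The groups again stayed apart, with log2 differences of 0.34 to 0.44, and the same coarse steps of p apply. The ratio separated the genotypes, whereas neither Fcgr3 nor Fcgr2b did on its own.

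The Fcgr4 to Fcgr2b ratio was 0.258, 0.278, 0.278 and 0.647 in WT samples 1 to 4. In miR-21-/- samples 1 to 4 it was 0.632, 0.620, 0.702 and 0.969. WT sample 4 lay within the range of the miR-21-/- samples, and the other WT samples lay far below. The log2 difference was 1.09 (SE 0.35), or 2.13-fold, and it did not pass the test (exact permutation test, two-sided, p = 0.0857, adjusted 0.0857). Without WT sample 4, the WT sample that overlapped, it was 1.41 (exact permutation test, two-sided, unadjusted p = 0.0286).

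The CPM of the 3 activating receptors summed to 1.12, 1.00, 1.00 and 1.65 times that of Fcgr2b in the WT samples and 1.81, 1.81, 1.93 and 2.33 times in the miR-21-/- samples. The groups did not overlap, with a log2 difference of 0.75 (SE 0.19), which is given as a description with no test. Fcgr2b made up 46.2% ± 5.82 of the CPM of the 4 IgG receptors in WT and 33.8% ± 2.62 (SD, n = 4 each) in miR-21-/- TAMs. The share of Fcgr4 was 16.1% ± 5.602 and 24.4% ± 3.24, and that of Fcgr1 11.955% ± 2.18 and 16.9% ± 0.849. Fcgr3 held nearly the same share in both genotypes, 25.8% ± 1.02 and 24.9% ± 0.741.

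**Figure D2:**
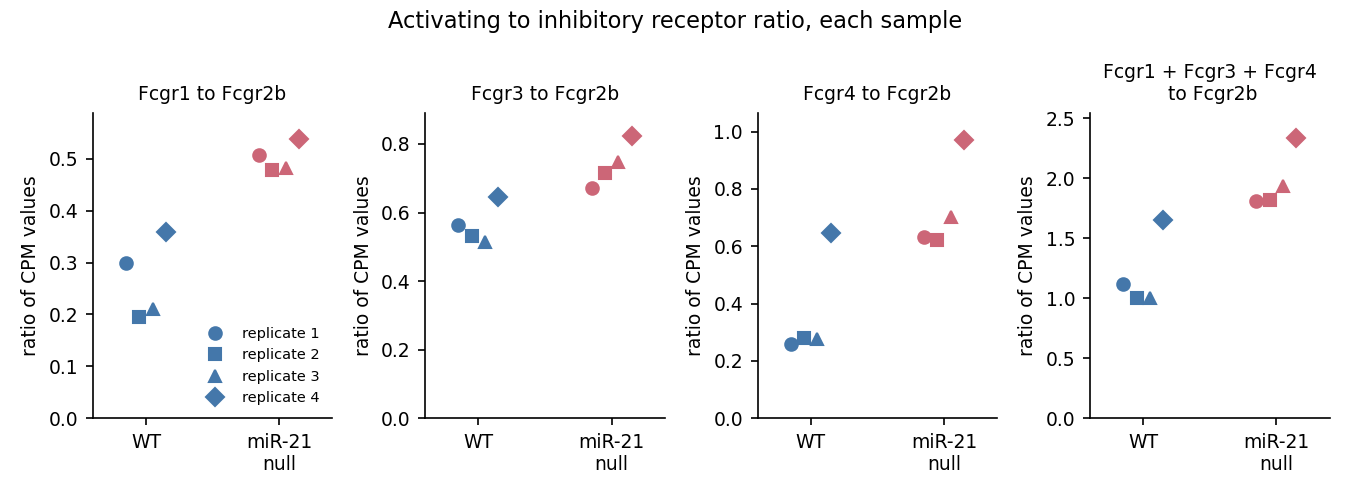
Ratio of the CPM of each activating receptor, and of their sum, to that of Fcgr2b in each sample (vertical axes start at 0; WT in blue, miR-21-/- in red). The genotypes overlap only for Fcgr4, where WT sample 4 (0.647) lies among the miR-21-/- samples (0.620 to 0.969).

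**Figure D3:**
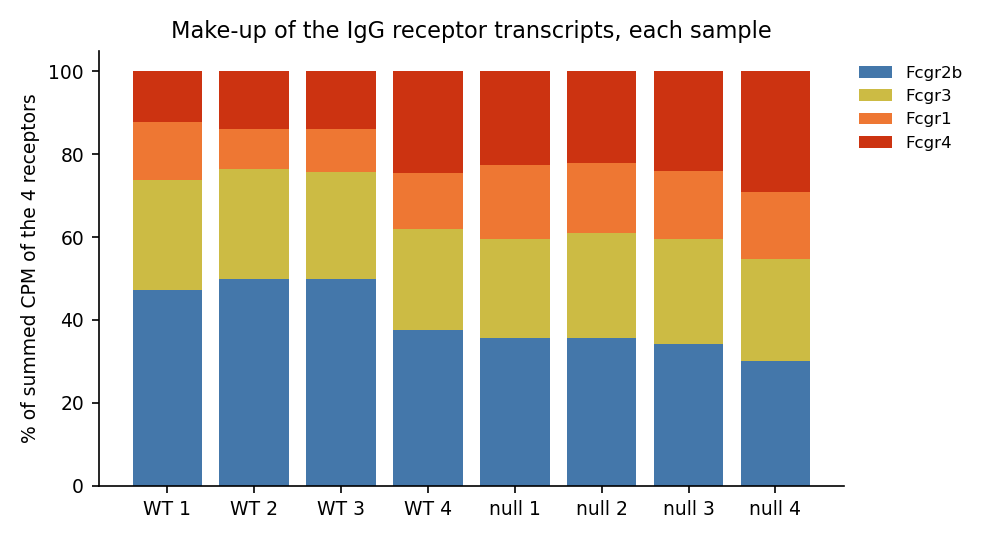
Share of each IgG receptor in the summed CPM of the 4 receptors, in percent, 1 bar per sample. Fcgr2b takes 37.7% to 49.99% in the WT samples and 30.0% to 35.6% in the miR-21-/- samples, and WT sample 4 holds the lowest share of the WT samples.

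The ratios and shares above were not divided by transcript length and serve to compare genotypes. To order the genes by level, values were divided by length, as CPM per kb of the longest annotated coding transcript. On this scale Fcer1g was the highest in WT TAMs, at 894 ± 52.5 CPM per kb, above Fcgr3 at 441 ± 33.1, Fcgr2b at 301 ± 50.9 and Fcgr4 at 293 ± 94.9 (SD, n = 4 each). Fcgr3, Fcgr2b and Fcgr4 were neighbours in this order, and the samples of Fcgr4 overlapped those of both other genes. Fcgrt at 112 ± 27.9 and Fcgr1 at 106 ± 13.7 CPM per kb were lowest and overlapped each other.

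In miR-21-/- TAMs Fcer1g was again the highest, at 1022 ± 51.5 CPM per kb, followed by Fcgr4 at 523 ± 46.8 and Fcgr3 at 499 ± 21.7, whose samples overlapped. Below these came Fcgr2b at 259 ± 31.4, Fcgr1 at 177 ± 17.7 and Fcgrt at 36.1 ± 3.75 CPM per kb (SD, n = 4 each), with no overlap between neighbours. The place of Fcgr2b depends on the transcript: its annotated coding transcripts run from 1084 to 3544 bases, and by the shortest it would be at 985 ± 166.5 CPM per kb in WT, overlapping Fcer1g, and 846 ± 102.6 in miR-21-/- TAMs. Which transcript these cells used was not measured.

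Fcgrt, which encodes FcRn, lies at chr7:45092990-45103851 on the minus strand. It was at 160.0, 249, 232 and 152 CPM in WT samples 1 to 4 and at 54.1, 65.7, 67.8 and 68.1 CPM in miR-21-/- samples 1 to 4. The lowest WT sample had more than any miR-21-/- sample, by a wide gap. Fcgrt fell from 198 ± 49.3 to 63.9 ± 6.64 CPM (SD, n = 4 each), with log2FC -1.59 (SE 0.16, 95% CI -1.94 to -1.24, limma adjusted p = 9.45e-05). This was the largest change among the 6 genes.

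B2m, the partner chain of FcRn and of MHC class I, named after its values were seen, went the other way. It was at 1520, 1359, 1401 and 1715 CPM in WT and 2123, 2086, 2285 and 2208 CPM in miR-21-/- samples 1 to 4. The groups did not overlap, but the log2 fold change of 0.54 (SE 0.090, limma adjusted p = 0.00157) was under the limit for the fold change. Of the 8 genes on the list of the FcRn partner and endosomal recycling, 1 was higher and 7 did not pass. Ehd1, which drives recycling from endosomes to the cell surface, rose from 221 ± 23.1 to 343 ± 12.9 CPM (log2FC 0.64, limma adjusted p = 0.000261). Rab4a, a GTPase of rapid recycling, had the lowest value of that list, -0.55, under the fold change limit.

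**Figure D4:**
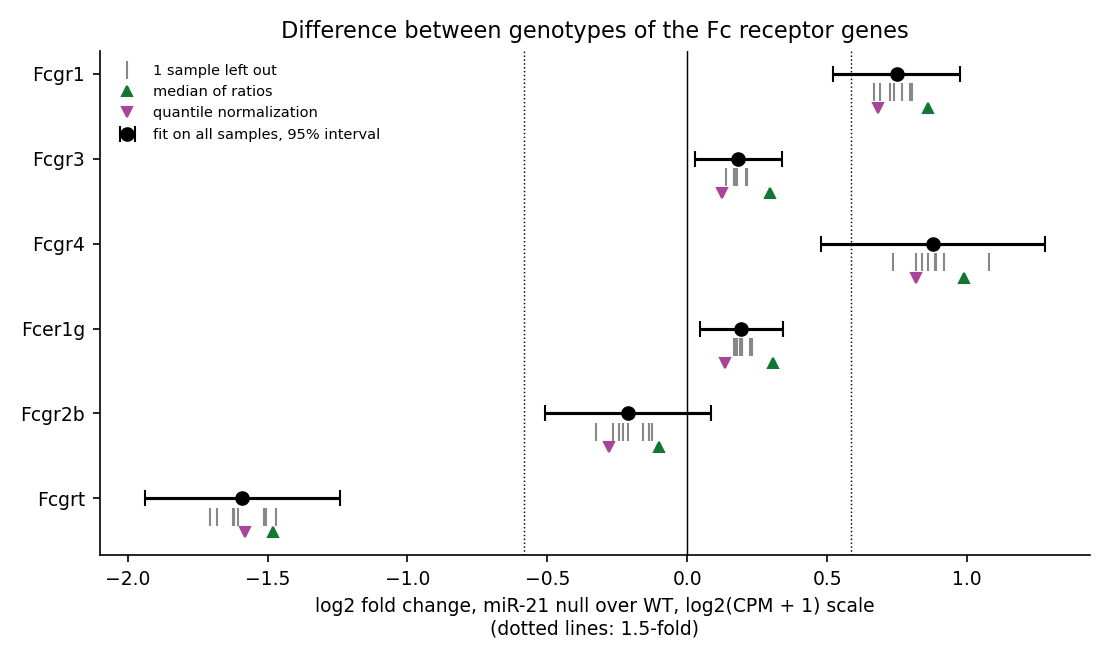
Log2 fold change of each Fc receptor gene, miR-21-/- over WT, on the log2(CPM + 1) scale, with the 95% interval of the limma fit in black, fits without 1 sample as grey ticks and fits after other scalings as triangles. The intervals of Fcgr1 (0.52 to 0.98), Fcgr4 (0.48 to 1.28) and Fcgrt (-1.94 to -1.24) exclude 0 by the widest margins, and that of Fcgr2b (-0.51 to 0.084) includes 0.

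The cells were checked against marker lists, with sums over each list in CPM. For comparison, 7.12% of all tested genes passed the threshold. An adjusted p of 0.05 or less was found for 4982 of the 13850 genes, so at least as many had an unadjusted p under 0.05. All 8 markers of macrophages and of the gate were present, at 8945 to 10785 CPM in WT and 7444 to 10163 CPM in miR-21-/- samples. None of the 8 passed the threshold in limma (2 had an unadjusted p under 0.05). These 2 were lower with no overlap. Adgre1, of the gate, was at 542 to 583 and 399 to 466 CPM (log2FC -0.38, limma adjusted p = 0.0014), under the fold change limit. Csf1r was at 1108 to 1474 and 866 to 1044 CPM (log2FC -0.48, limma adjusted p = 0.00538) and met neither limit. Only Cd68 had a positive log2FC, 0.13. All were named after their values were seen. B cells also carry Fcgr2b: the 8 B cell markers, of which 4 were tested and 2 were lower, summed to 98.8 to 122 CPM in WT and 37.2 to 54.7 CPM in miR-21-/- samples. Neutrophils and monocytes carry activating receptors: the 8 neutrophil markers summed to 1058 to 2193 and 766 to 1113 CPM and the 8 monocyte markers to 968 to 1748 and 855 to 1466 CPM. No gene of either list passed the threshold in limma (unadjusted p under 0.05 in 5 of 7 tested neutrophil and 4 of 8 monocyte markers), and WT sample 4 had the lowest sum of the WT samples on both. NK cells express Fcgr3 and Fcer1g, and their 8 markers summed to 5.72 to 14.5 and 9.83 to 27.1 CPM.

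The 6 fibroblast markers, of which 5 were tested and 3 were lower, summed to 60.7 to 137 CPM in WT and 10.1 to 44.1 CPM in miR-21-/- samples. Like Fcgrt, this sum was lower in miR-21-/- samples with no overlap, and the part of these cells in the Fcgrt result was not tested. Sums of the 8 mast cell and basophil markers (7.57 to 9.26 and 3.99 to 5.94 CPM) and of the 6 tumor epithelial markers (19.9 to 26.3 and 13.7 to 18.4 CPM) did not overlap either, and none of their genes passed the threshold in limma (unadjusted p under 0.05 in 3 and 2 genes). Sums overlapped for the markers of endothelial cells (153 to 304 and 203 to 292 CPM), T cells (23.5 to 45.3 and 11.1 to 42.2 CPM), dendritic cells (12.3 to 21.1 and 15.8 to 39.1 CPM) and plasma cells (7.77 to 23.8 and 1.15 to 32.4 CPM). Among these lists and that of NK cells, 1 T cell gene passed the threshold in limma, Cd4, which was lower (16.6 and 2.19 CPM), whereas Cd8a had log2FC 1.29 with no overlap and did not pass (limma adjusted p = 0.00804). Both were named after their values were seen. An unadjusted p under 0.05 was found for 3 of 8 tested T cell genes, 5 of 7 dendritic cell genes, 3 of 4 NK cell genes and no endothelial or plasma cell gene. Among all 13850 tested genes it was found for at least 4982. Ms4a2, Krt19 and Tek were at or under 3 reads in all samples. The part of these cells in the Fc receptor results was not tested, and in bulk samples fewer cells of a type and less RNA per cell cannot be told apart.

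Genes of the Fc receptor pathway were taken from 5 lists of 78 symbols, of which 76 were in the table and 67 were tested. Past the threshold were 6 of the 67, 3 higher and 3 lower, or 8.96%, beside 7.12% of all tested genes. Their median log2 fold change was -0.050, and that of all tested genes was -0.10. After rescaling by the median of ratios 7 passed, 5 higher and 2 lower, and the median of the lists changed sign to 0.060. The share was thus near the background, and the 6 genes are given by their lists.

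Other Fc receptors and their relatives accounted for 3 of the 6 genes, with 12 listed and 6 tested, 1 higher and 2 lower, and a median of -0.36. Fcrlb, an intracellular relative of the Fc receptors known from B cells, was at 11.1, 7.13, 14.3 and 9.40 CPM in WT and 29.3, 30.4, 27.1 and 21.1 CPM in miR-21-/- samples 1 to 4. It rose with no overlap (log2FC 1.31, SE 0.18, limma adjusted p = 0.000606). Fcrls, an Fc receptor-like gene expressed in macrophage subsets and microglia, was at 136, 89.2, 119 and 48.0 CPM in WT and 11.6, 13.8, 17.9 and 6.65 CPM in miR-21-/- samples. It fell with the largest change of the 5 lists (log2FC -2.85, SE 0.33, limma adjusted p = 0.000247). Fcrl1, a receptor of B cells, fell from 7.94 ± 0.833 to 3.86 ± 1.15 CPM (log2FC -0.90, limma adjusted p = 0.00203), beside the lower sum of B cell markers.

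None of the 25 kinases, adaptors and effectors downstream of the activating receptors passed the threshold in limma. An unadjusted p under 0.05 was found for 7 of them, beside at least 4982 of all 13850 tested genes. The median of the 25 was -0.058. The highest was Vav3, at 97.0 ± 2.12 and 119 ± 2.41 CPM (log2FC 0.29, limma adjusted p = 0.000961, under the fold change limit). Src, a tyrosine kinase, was the lowest at -0.46 (limma adjusted p = 0.202). Syk, the kinase recruited by the γ chain, named after its values were seen, was at 423 ± 42.1 and 401 ± 44.5 CPM, with log2FC -0.079 and a 95% CI of -0.29 to 0.13.

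Among 16 tested negative regulators, 1 was lower and 15 did not pass, with a median of -0.088. Sla, an adaptor that limits receptor levels through Cbl, fell from 195 ± 15.9 to 127 ± 17.2 CPM (log2FC -0.62, limma adjusted p = 0.00106). Siglece, an inhibitory lectin, was lowest at -0.97 (limma adjusted p = 0.0791, overlapping groups), and Cblb, a ubiquitin ligase, highest at 0.37 (limma adjusted p = 0.0208). Inpp5d, named after its values were seen, was at 332 ± 11.2 and 340.4 ± 16.6 CPM, with log2FC 0.036 and a 95% CI of -0.087 to 0.16.

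Of 12 tested receptors and adaptors that pair with or parallel the γ chain, 1 was higher and 11 did not pass, with a median of -0.059. Clec4d, a C-type lectin that signals through the γ chain, was at 121, 79.8, 87.2 and 78.3 CPM in WT and 283, 262, 214 and 197 CPM in miR-21-/- samples 1 to 4. All miR-21-/- samples were above all WT samples, and Clec4d rose with log2FC 1.38 (SE 0.15, limma adjusted p = 0.000167). Sirpb1a, an activating receptor of the SIRP family, was lowest at -0.41 (limma adjusted p = 0.153). Tyrobp, the adaptor DAP12 that works in parallel with the γ chain, named after its values were seen, was at 348 ± 5.58 and 334 ± 9.51 CPM, with log2FC -0.058 (limma adjusted p = 0.377).

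**Figure D5:**
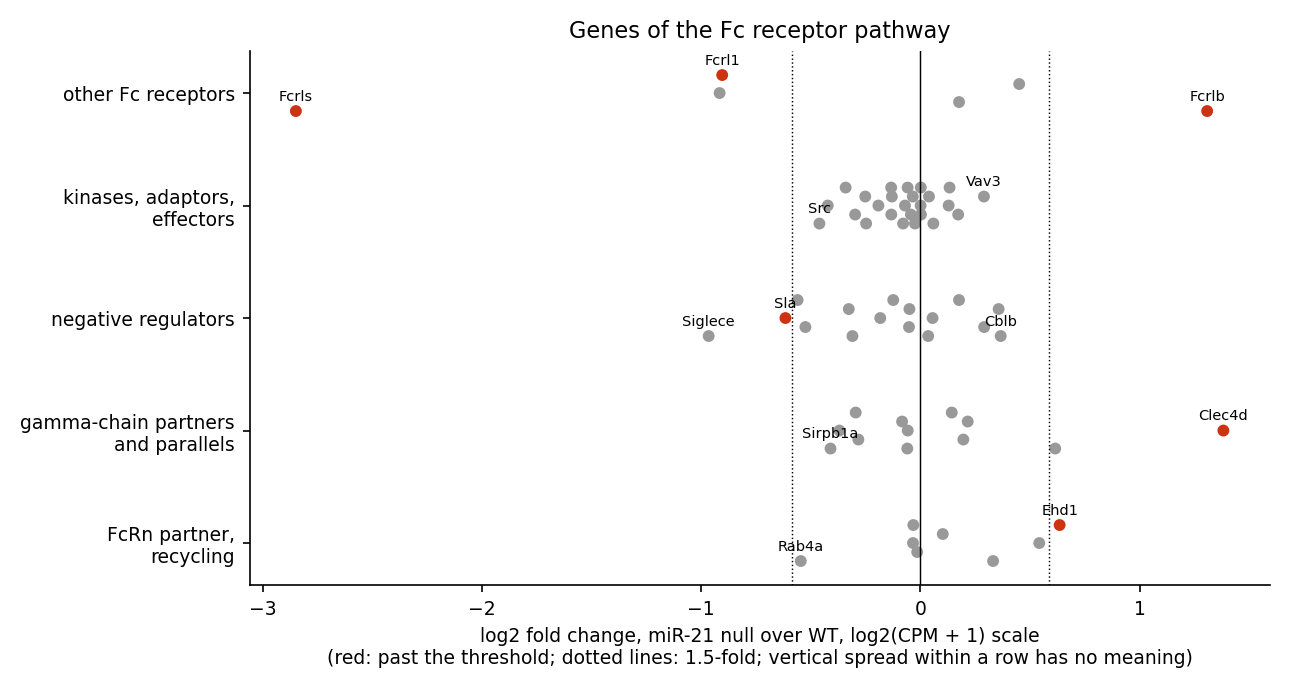
Log2 fold change, miR-21-/- over WT, on the log2(CPM + 1) scale, of the 67 tested genes of the 5 pathway lists, 1 row per list; red points passed the threshold, and vertical position within a row has no meaning. Points gather near 0 in the row of kinases, adaptors and effectors, with Src (-0.46) and Vav3 (0.29) at its ends, while Fcrls (-2.85), Fcrlb (1.31) and Clec4d (1.38) stand apart.

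Fcgr2b, Fcgr4, Fcgr3 and Fcer1g lie close together on chromosome 1, and genes within 100 kb of each member were looked up. Of all 13850 tested genes, 7.12% passed the threshold and at least 4982 had an unadjusted p under 0.05. Near Fcgr2b, 8 neighbours were tested and 2 passed, Fcrlb and the member Fcgr4 (6 had an unadjusted p under 0.05). Near Fcgr3, 4 were tested and Fcgr4 alone passed (2 had an unadjusted p under 0.05). Near Fcgr4 none of the 6 tested passed in limma (2 had an unadjusted p under 0.05). Near Fcer1g, 12 were tested and 1 passed (5 had an unadjusted p under 0.05). It was Pcp4l1, a relative of the small protein PCP4, which fell from 2.43 ± 0.448 to 0.859 ± 0.439 CPM (log2FC -0.91, limma adjusted p = 0.00374). None of the 6 tested neighbours of Fcgr1 passed in limma (3 had an unadjusted p under 0.05).

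Near Fcgrt, 14 neighbours were tested and 1 passed (10 had an unadjusted p under 0.05). All 14 had a negative log2 fold change, from -2.27 to -0.019, but the median of all tested genes was also negative, at -0.10. The share of all tested genes with a negative value was not counted. Rescaling by the median of ratios moved the median of all genes by 0.10, so the sign of values near 0 depends on the scaling. The gene that passed was Rcn3, which encodes a calcium-binding protein of the endoplasmic reticulum, on the same strand. It was at 4.54 to 13.01 CPM in WT and 0.529 to 1.14 CPM in miR-21-/- samples, with no overlap. Rcn3 fell with log2FC -2.27 (SE 0.26, limma adjusted p = 0.000211), in the same direction as Fcgrt.

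Tested genes were ranked by how near their profile was to that of each Fc receptor gene, as the mean absolute difference over the 8 samples of log2 values centred on each gene's mean. The nearest to Fcgr1 were Crem (0.059), a cAMP-responsive transcription factor, Ifi211 (0.063), an interferon-inducible gene, and Dhx58 (0.063), a cytosolic RNA sensor. Nearest to Fcgr4 were Psmb9 (0.11), a subunit of the immunoproteasome, Il27 (0.12), a cytokine subunit, and H2-T23 (0.13), a nonclassical MHC class I gene. Those nearest to Fcgrt were Gpx3 (0.10), a secreted glutathione peroxidase, Zfp658 (0.10), a zinc finger gene, and Naip3 (0.11), a relative of the NAIP sensors.

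For the 3 genes that did not pass, profiles were flatter and the nearest genes nearer. They were Sgpl1, Elp5 and Fbxo28 for Fcgr3 (0.033 to 0.035), Gm13880, Setdb2 and Babam2 for Fcer1g (0.030 to 0.035) and Dync2h1, Pdk2 and Raph1 for Fcgr2b (0.044 to 0.060). Among the 6 genes themselves, Fcgr3 and Fcer1g were nearest to each other (0.11), Fcgr1 and Fcgr4 were 0.23 apart, and Fcgr4 and Fcgrt were farthest apart (1.23). The 3 nearest genes were picked from all 13850 tested genes, so their distances cannot be set against the 1 distance between Fcgr1 and Fcgr4.

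Sequencing depth was 20.2 to 33.4 in units of 1e+06 reads, as given by the spacing of low values, and the Fc receptor genes had 1450 to 34127 reads per sample. At these depths the spread between samples, not the number of reads, sets the error of the values. Mir21a was listed at 0 CPM in all 8 samples, which leaves the genotype labels without that check. Vmp1, whose gene contains Mir21a, was at 115 to 133 CPM in WT and 373 to 426 CPM in miR-21-/- samples. WT sample 4 had the lowest mean correlation with its own genotype, 0.989, where the samples ranged up to 0.993.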

How the data were processed

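mRNA of sorted TAMs was sequenced in 4 WT and 4 miR-21-/- samples. The authors deposited CPM values, each raised by 0.0001, for 53247 genes. STAR, Partek 7.0 and mm10 are named in the submitters' processing notes; the counting rule and use of strand are not given in the sources used here. Coordinates of 96% of the genes found in GENCODE vM21 (GRCm38), including all 6 members, matched start and end. Of the values up to 20 reads, 73.1% to 74.0% were whole reads within a tolerance of 0.02 reads, so whole counts were not recovered and no count test was run.

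The offset of 0.0001 was subtracted, and log2(CPM + 1) was modelled by limma 3.58.1 (R 4.3.3; lmFit, eBayes with trend). Tested were 13850 genes whose average reached 1 per 1e+06 of the summed column, with Benjamini-Hochberg adjustment. This scale understates the change of low genes. The adjusted p limit of 0.005 and the fold change limit of 1.5 are those of the study. Ratios were tested with exact permutation tests over samples, and p-values measure the spread between these samples. On simulated data, 89% of 200 changed genes were recovered (80% at a log2 change of 1 and 98% at 2), and 1 unchanged gene was called. The noise was drawn independently for each gene, and no change under 1 was simulated. All members but Fcgrt differed by less than 1, so these rates do not apply to them.

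The members and lists were chosen with earlier results of these data known. Named genes are the 6 members, list genes past the threshold and with the highest and lowest fold change, neighbours within 100 kb past the threshold, the 3 nearest profiles, Mir21a and Vmp1, and markers at or under 3 reads; others are marked. Protein sequences were not used here, and coding sequences were aligned in their place with Biopython 1.88; promoters and miRNAs are from RefSeq (GRCm38.p6), where all 6 members were matched. Alternatives were pseudocounts of 0.1 and 10, filters, other scalings, eBayes without trend, a block for replicate number, fits that dropped 1 sample and another threshold.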

Additional observations from a re-analysis of the deposited data

Results flagged for a closer look

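Within groups of 4, a sample was flagged when its gap to the nearest other sample was large against the whole range of the group, which chance alone does for about 1 in 20 groups. The rule was applied to the 6 genes, the 3 receptor ratios and the summed ratio in each genotype, so flags can arise by chance alone. Fcgrt was at 54.11 CPM in miR-21-/- sample 1, where the other miR-21-/- samples were at 65.7 to 68.1 CPM; leaving out any single sample kept its log2 fold change between -1.71 and -1.47. The Fcgr4 to Fcgr2b ratio was 0.6473 in WT sample 4, where the other WT samples were at 0.258 to 0.278. Without this sample the log2 difference between genotypes was 1.41 (exact permutation test, two-sided, unadjusted p = 0.0286). No cause was tested for either.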

How the results depend on the processing

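Fcgr1 and Fcgrt stayed past the threshold, and Fcgr3 and Fcgr2b stayed outside it, in all 17 alternatives, with log2 fold changes of 0.67 to 0.86 for Fcgr1, -1.71 to -1.47 for Fcgrt, 0.12 to 0.29 for Fcgr3 and -0.32 to -0.099 for Fcgr2b. No member and no ratio changed direction. Fcgr4 lost its call in 10 of 17 alternatives: with no filter on low values (0.88), after quantile normalization (0.82), with eBayes without the trend (0.88) and in 7 of the 8 fits that left out 1 sample (0.73 to 1.08 over the 8). Fcer1g passed at an adjusted p of 0.05 with no fold change limit (0.19). Rescaling by the median of ratios moved the median of all genes by 0.10 and quantile normalization by 0.095. After the former, Fcgr3 was at 0.29, Fcer1g at 0.31 and Fcgr2b at -0.099. Quantile normalization moved these genes the other way, to 0.12, 0.13 and -0.28. The share of higher genes among those past the threshold went from 40.6% to 59.8% and 59.2%, in that order of scalings. It was also 55.5% with a pseudocount of 10 and 52.6% with no filter, but 26.4% at an adjusted p of 0.05 with no fold change limit. The 986 genes past the threshold became 452 with a pseudocount of 10, 517 with no filter and 4982 at an adjusted p of 0.05 with no fold change limit, and 684 to 1002 without 1 sample. The 6 pathway genes became 3 with no filter and 26 at the looser threshold, and 4 to 8 without 1 sample.

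With 1 sample left out, the log2 difference of the Fcgr1 to Fcgr2b ratio was 0.83 to 1.12 and that of Fcgr3 to Fcgr2b 0.34 to 0.46. For both, the exact permutation p was 0.0571 without each miR-21-/- sample, although the groups still did not overlap. The Fcgr4 to Fcgr2b difference was 0.95 to 1.41, and only without WT sample 4 (1.41) was its unadjusted exact permutation p under 0.05. That was the WT sample that overlapped the miR-21-/- samples, so leaving it out by itself set the groups apart. The replicate numbers come from the descriptions, and in miR-21-/- samples they differ from the numbers in the titles (sample 2 is titled 3, sample 3 is titled 4, and the title of sample 4 has no number). They did not pair the samples, since deviations of same-numbered samples correlated at 0.083, -0.11, -0.14 and 0.22, and only number 4 of the WT samples correlated best with its own number. With the replicate number as a block, the differences were 0.96 for Fcgr1 to Fcgr2b and 0.39 for Fcgr3 to Fcgr2b, each with p = 0.125 by exact sign flips, the smallest that 4 pairs allow; for the 6 members and the Fcgr4 to Fcgr2b ratio the block changed no call, while 922 genes of all those tested and 8 pathway genes (4 higher, 4 lower) passed the threshold. The causes of these shifts were not tested. Precision is limited by 4 samples per genotype, and the split of reads between Fcgr2b and Fcgr3 by their shared sequence.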
